A study of Mus musculus with 2 samples.

Results

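The lysosomal cathepsins are 10 genes of the matrix, chosen by symbol from its 32285 genes: the cathepsin family without the granule serine protease Ctsg and without the family's remaining genes. All 10 symbols were found. They were described in a droplet single-cell RNA library of cells grown from mouse aorta. The labels state 2 male C57BL/6J mice, aged 12 weeks, whose digested aortas were kept for 14 days in the semi-solid medium methylcellulose. What was sequenced were viable sorted cells of the colonies scored as CFU-M, the colony-forming unit of macrophages. The material was pooled and no treatment or genotype is compared, so cells are compared with cells of the same library and no difference below has a replicate check.

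Cathepsins are proteases that cells make as inactive proenzymes and send to lysosomes, mostly by the mannose 6-phosphate route, where acid and other proteases activate them. Most are papain-like cysteine proteases (B, C, H, K, L, S and Z), while D and E are aspartic proteases and A is a serine carboxypeptidase. In macrophages they digest engulfed protein and trim the invariant chain of class II antigen presentation. In mast cells cathepsin C activates granule proteases, and in matrix-forming cells cathepsin K is known for cleaving collagen.

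After filters 30755 of 34813 barcodes were kept, with a median of 12728 gene UMIs (unique molecular identifiers, each 1 captured RNA molecule). Clusters were named from marker genes: 17643 mast cell-like cells, 2718 macrophage-like cells and 5438 fibroblast-like cells. The remaining 4956 cells included 4621 in a cluster with 7 of 7 mast cell markers that was led by haemoglobin genes and stayed unnamed. The label of macrophage colonies therefore covered 8.84% of cells, and 57.4% were mast cell-like. Median depth differed, at 12769 UMIs for mast cell-like, 8771.5 UMIs for macrophage-like and 31143.5 UMIs for fibroblast-like cells. Droplets also held RNA of other classes: the 7 mast cell markers stood in macrophage-like cells at 31.8% to 39.3% of their mast cell-like level, and in fibroblast-like cells at 14.2% to 16.3%. A cathepsin that stood in another class at such a share could not be told apart from carried-over RNA there. The library also went against the label of male mice: Xist, the RNA of the inactive X chromosome in females, had 357 CPM among macrophage-like, 704 CPM among fibroblast-like and 409 CPM among mast cell-like cells, beside the Y-linked gene Ddx3y at 52.2, 30.9 and 18.7 CPM, so the animals behind these cells cannot be told.

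Levels are given as CPM, the UMIs of a gene per 1000000 gene UMIs summed over the cells of a class. The kit counts each molecule at its 3′ end, so levels of different genes can be compared without a correction for length, although capture can differ between genes. The 95% intervals cover counting error only. Detection is the share of cells with at least 1 UMI after each cell was thinned to 6000 UMIs, which 2980 shallower cells could not be. This left out 659 of 2718 macrophage-like cells, 1362 of 17643 mast cell-like cells and 218 of 5438 fibroblast-like cells. Values of thinned cells therefore describe the deeper cells, above all in the macrophage-like class.

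Windows around the start site, 250 bases before to 50 after it, were found in RefSeq on GRCm38.p6 for 7 of the 10 members. Of these 7, Ctss, Ctsk and Ctsl had the widest spans of level over the classes and are shown, beside Ctsd, the member with the most UMIs in mast cell-like cells. Capitals mark matches, on either strand, to the letters of an E-box core, a PU.1 site, an M-box or a TATA box. Ctsd lies on the minus strand at chr7:142387778-142388077, Ctss on the plus strand at chr3:95526536-95526835, Ctsl on the minus strand at chr13:64370471-64370770, and Ctsk on the plus strand at chr3:95498960-95499259.
Ctsd: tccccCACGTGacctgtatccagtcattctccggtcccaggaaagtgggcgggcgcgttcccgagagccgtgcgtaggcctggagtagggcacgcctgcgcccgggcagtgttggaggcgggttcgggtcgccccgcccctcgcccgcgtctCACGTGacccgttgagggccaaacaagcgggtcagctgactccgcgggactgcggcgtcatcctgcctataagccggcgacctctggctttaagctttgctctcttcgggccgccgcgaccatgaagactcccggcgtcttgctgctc
Ctss: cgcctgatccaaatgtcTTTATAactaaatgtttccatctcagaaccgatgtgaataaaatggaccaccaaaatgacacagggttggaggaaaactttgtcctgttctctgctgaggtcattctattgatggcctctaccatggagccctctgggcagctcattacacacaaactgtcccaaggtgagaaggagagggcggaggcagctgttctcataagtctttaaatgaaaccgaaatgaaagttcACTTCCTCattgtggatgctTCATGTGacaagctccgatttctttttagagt
Ctsl: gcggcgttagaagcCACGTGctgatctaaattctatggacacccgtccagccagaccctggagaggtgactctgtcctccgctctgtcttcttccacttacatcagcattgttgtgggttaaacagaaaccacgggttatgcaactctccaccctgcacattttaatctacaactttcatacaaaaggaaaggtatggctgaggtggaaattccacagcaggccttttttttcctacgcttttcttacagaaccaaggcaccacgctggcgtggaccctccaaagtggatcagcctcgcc
Ctsk: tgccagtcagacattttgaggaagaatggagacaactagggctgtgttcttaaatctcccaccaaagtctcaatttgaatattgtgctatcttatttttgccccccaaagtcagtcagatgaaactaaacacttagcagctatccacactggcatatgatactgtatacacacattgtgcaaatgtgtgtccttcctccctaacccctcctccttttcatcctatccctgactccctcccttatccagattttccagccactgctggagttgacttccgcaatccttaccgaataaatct
The E-box core, which the MiT factors of lysosomal genes bind, was searched as CACGTG and stood in 7.15% of all 32851 windows. It began at -245 and -98 from the RefSeq start site in Ctsd, at -236 in Ctsl, and at -12 and 5 in the second window of Ctsa. The annotation GENCODE M21 places other starts, at 142388038 for Ctsd, 64370890 for Ctsl and 164832873 for Ctsa. By these the Ctsl match, the Ctsd match at -98 and the Ctsa matches lie within the gene. The PU.1 site, bound by a master factor of macrophages, was searched as GAGGAAGT and stood in 3.20% of windows. It began at -2 in Ctss and at -151 in Ctsc, both on the reverse strand. The M-box of the same MiT factors, searched as TCATGTG, was in 3.77% of windows and matched in Ctss and Ctsa. The TATA box letters TATAAA, found in 13.6% of windows, matched in Ctss at -233 on the reverse strand. The longer CLEAR element, which contains the E-box core, was searched only as a fixed string, so sites differing from it in any letter were not counted. Whether the E-box matches above are looser forms of this element was not tested. The exact CLEAR string (0.326% of windows) had no match in the members' windows. Neither did the AP-1 letters TGANTCA, which were in 7.81% of all windows of this length. The GATA letters AGATAAG, in 3.04% of windows, had no match either, and the Ctsk window matched none of the 7 motifs. Matches are letters in a window and say nothing of binding.

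Ctsk and Ctss are neighbours. In GENCODE M21 on GRCm38, Ctsk spans chromosome 3, 95499256 to 95509362, and Ctss 95526786 to 95556403, both on the plus strand and 17423 bases apart. Ctsk had 250.4 CPM in the fibroblast-like class and 12.2 CPM in the macrophage-like class, whereas Ctss had 5.22 and 565 CPM. In fibroblast-like cells 62.6% had a Ctsk UMI and 2.32% a Ctss UMI. In macrophage-like cells these shares were 7.33% and 87.9%. No gene on the same strand overlapped any member; Ctsa, Ctsb, Ctsl and Ctsz each overlap a gene on the opposite strand, and the use of strand in counting is not given in the sources used here.

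**Figure D1:**
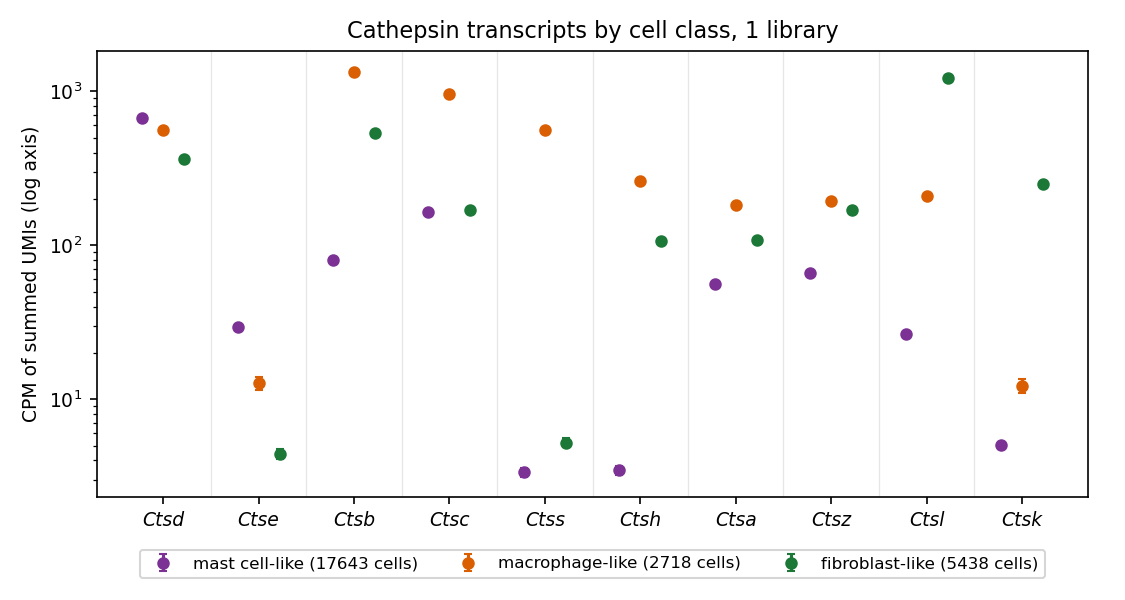
Level of each cathepsin in 3 cell classes of 1 library. The vertical log axis is CPM of summed UMIs, points are classes and bars are exact Poisson 95% intervals; Ctsd differs least between macrophage-like and mast cell-like cells, while Ctss, Ctsh, Ctsl and Ctsk span more than the others.

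The 10 genes together made up 4298 CPM in the macrophage-like class, 2938 CPM in the fibroblast-like class and 1106 CPM in the mast cell-like class. Their make-up differed by class. Ctsd, the aspartic protease cathepsin D, held 60.6% of the cathepsin UMIs of mast cell-like cells. Ctsl, the endopeptidase cathepsin L, held 41.7% in fibroblast-like cells, and Ctsb, the abundant cathepsin B, held 31.2% in macrophage-like cells. Cell by cell the order was alike: Ctsd was the member with the most UMIs in 76.1% of thinned mast cell-like cells (95% interval 75.4 to 76.7), and Ctsl in 68.1% of fibroblast-like cells (66.8 to 69.4). In macrophage-like cells Ctsb led in 47.5% (45.3 to 49.7), Ctsc in 22.5%, Ctsd in 8.98% and Ctss in 8.40%. Ties between members made up 14.2% of mast cell-like, 11.3% of macrophage-like and 12.2% of fibroblast-like cells.

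**Figure D2:**
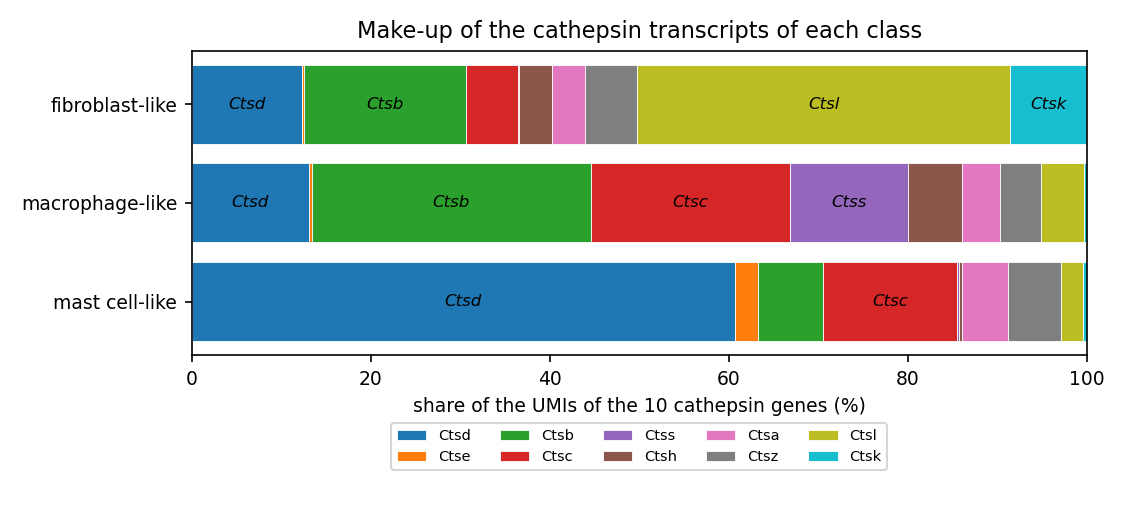
Make-up of the cathepsin UMIs of each class. The horizontal axis is the share of the UMIs of the 10 genes in percent; Ctsd fills 60.6% of the mast cell-like bar, Ctsl 41.7% of the fibroblast-like bar and Ctsb 31.2% of the macrophage-like bar.

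Among the aspartic proteases, Ctsd was abundant in every class. It had 671 CPM in the mast cell-like class, 563 CPM in the macrophage-like class and 363 CPM in the fibroblast-like class, and 96.2%, 85.8% and 83.5% of thinned cells had a UMI. Mast cell-like and macrophage-like cells lay within 1.19-fold of each other. Mast cell RNA moved with this value. In macrophage-like cells grouped into 4 bins by their mast cell marker UMIs, Ctsd went from 419 and 409 CPM in the lower bins to 588 and 662 CPM in the upper ones, as those markers' median went from 11 and 17 to 146 and 264 UMIs per cell. With mast cell RNA subtracted at the markers' median ratio, Ctsd was at 322 CPM in the macrophage-like class and 257 CPM in the fibroblast-like class.

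Ctse, cathepsin E, a non-lysosomal aspartic protease of endosomes, was the only member whose highest level was in mast cell-like cells beside Ctsd. It had 29.3 CPM there, 12.7 CPM in the macrophage-like class and 4.40 CPM in the fibroblast-like class. The macrophage-like value is 43.2% of the mast cell-like one, beside 31.8% to 39.3% for the mast cell markers, and the fibroblast-like value fell within the markers' range there. After the subtraction, again without rescaling, 2.14 CPM remained in macrophage-like cells and 0 in fibroblast-like cells. In the lower bins of mast cell RNA, macrophage-like cells had 4.81 and 3.32 CPM of Ctse, against 24.5 CPM in the highest.

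The macrophage class held the most of 6 members: Ctsb, Ctsc, Ctss, Ctsh, Ctsa and Ctsz. Ctsb had 1342 CPM (1328 to 1355) in macrophage-like cells, 533 CPM in the fibroblast-like class and 79.7 CPM in the mast cell-like class. A Ctsb UMI was found in 97.1%, 91.1% and 37.8% of their thinned cells, with a median of 7, 3 and 0 UMIs per cell. Ctsc, the dipeptidyl peptidase that trims granule proteases, had 955 CPM in the macrophage-like class, 170 CPM in the fibroblast-like class and 165 CPM in the mast cell-like class. In mast cell-like cells Ctsc was still the member after Ctsd by share of cathepsin UMIs, with a UMI in 56.9% of thinned cells.

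Ctss, cathepsin S, which cleaves the invariant chain, had the largest ratios between macrophage-like cells and the other classes of the 10 members. It had 565 CPM (556 to 574) in macrophage-like cells, 3.36 CPM in the mast cell-like class and 5.22 CPM in the fibroblast-like class. Detection was 87.9%, 1.94% and 2.32%, and the levels outside macrophage-like cells could not be told apart from carried-over RNA. The mast cell-like level was 0.595% of the macrophage-like one, within the 0.315% to 0.738% of the 8 macrophage markers, and the fibroblast-like level was 0.925%, within their 0.648% to 4.84%. Of thinned macrophage-like cells, 81.4% had UMIs of both Ctss and Cd74, the invariant chain gene. Cd74 alone was found in 91.8% and Ctss in 87.9%, so most cells would hold both without any link between the genes.

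Ctsh, an aminopeptidase, had 263 CPM in the macrophage-like class, 107 CPM in the fibroblast-like class and 3.46 CPM in the mast cell-like class. Its fibroblast-like level was 40.7% of the macrophage-like one, above the 4.84% reached by any macrophage marker there, while its mast cell-like level was 1.32%. Ctsa, whose product protects beta-galactosidase and neuraminidase, differed less, with 183, 108 and 56.2 CPM in the macrophage-like class, fibroblast-like and mast cell-like cells. Ctsz, a carboxypeptidase, had 194, 171 and 66.2 CPM in the same order, and macrophage-like and fibroblast-like cells were within 1.13-fold.

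Ctsl and Ctsk were highest in fibroblast-like cells. Ctsl had 1226 CPM (1221 to 1232) there, 209 CPM in the macrophage-like class and 26.4 CPM in the mast cell-like class, with detection in 97.6%, 57.6% and 15.3% of thinned cells. Its macrophage-like level was 17.0% of the fibroblast-like one, beside 1.93% to 3.94% for the 7 fibroblast markers. Its mast cell-like level was 2.15%, beside 1.38% to 2.63%. Ctsk had 250.4 CPM in the fibroblast-like class, 12.2 CPM in the macrophage-like class and 5.02 CPM in the mast cell-like class, the last being 2.00% of its highest level. The macrophage-like share of 4.87% lay just above the fibroblast markers' range. Osteoclasts, macrophage-lineage cells known for abundant cathepsin K, have 5 markers in the lists, and these summed to 14.7 CPM in the macrophage-like class. Of thinned fibroblast-like cells 61.7% had UMIs of both Ctsk and Ctsl. Ctsk was found in 62.6% and Ctsl in 97.6%, so most cells with Ctsk would hold both without any link between the genes.

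Against mast cell-like cells, macrophage-like cells were 2-fold or more higher in 8 of the 10 members and lower in 1, counting genes with at least 10 CPM in either class. Over all genes 17.6% were higher and 11.0% lower by this rule. The ratios were 168 for Ctss (157 to 180.1), 75.9 for Ctsh (70.8 to 81.4), 16.8 for Ctsb, 7.92 for Ctsl, 5.77 for Ctsc, 3.25 for Ctsa, 2.92 for Ctsz and 2.43 for Ctsk. Ctsd was at 0.839 and Ctse, the lower one, at 0.432 (0.388 to 0.480). The median ratio was 4.51 over the members and 0.867 over all genes. The call for Ctse depended on the cells: with called doublets kept it was at 0.526. Ctsk, the lowest of the 8, stood at 4.87% and 2.00% of its fibroblast-like level in macrophage-like and mast cell-like cells. The fibroblast markers stood at 1.93% to 3.94% and 1.38% to 2.63% there, and those that entered had ratios of 1.32 to 1.65. The part of carried-over fibroblast RNA in the Ctsk ratio was not tested.

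Against fibroblast-like cells, macrophage-like cells were higher in 5 of 10 members and lower in 2, beside 18.8% and 19.1% of all genes. The higher ones were Ctss at 108 (101 to 116), Ctsc at 5.63, Ctse at 2.88, Ctsb at 2.52 and Ctsh at 2.46. Mast cell markers were also 2.22-fold to 2.48-fold higher in macrophage-like than fibroblast-like droplets, and that range lies beside the ratio of Ctse. The lower ones were Ctsl at 0.170 and Ctsk at 0.0487. With doublets kept the count of higher members was 3. The median ratio was 2.08 over members and 0.953 over all genes.

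Fibroblast-like cells were higher than mast cell-like cells in 5 of the 9 members that reached 10 CPM in either, and lower in 1, beside 22.4% and 16.4% of all genes. Ctsk was at 49.9 (47.3 to 52.8), Ctsl at 46.5 (45.4 to 47.6), Ctsh at 30.9, Ctsb at 6.69 and Ctsz at 2.58. Ctse was the lower one (0.139 to 0.162). Ctsa was at 1.92, Ctsc at 1.03 and Ctsd at 0.542, and Ctss did not reach 10 CPM. The median ratio was 2.58 over these members and 0.962 over all genes.

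The tags of the MULTI-seq labelling, which mark cells of the same suspension, followed the classes. Of mast cell-like cells 70.8% carried only the tag named Cafum, of macrophage-like cells 71.4% only the tag named Macrophages and of fibroblast-like cells 48.0% only the tag named Matrigel. What the suspensions were is not given in the labels, so class and suspension largely cannot be told apart. In macrophage-like cells with the Macrophages tag alone, mast cell markers stood at 15.6% to 21.0% and the cathepsins of that class were higher: Ctsb 1648 CPM, Ctsc 1156 CPM, Ctss 710 CPM, Ctsh 339 CPM. Ctse was at 8.42 CPM and Ctsd at 472 CPM there. Between fibroblast-like cells with the Cafum tag (358 cells) and the Matrigel tag (2610 cells), a pair chosen after the values were seen, 0 of 8 members that entered differed 2-fold, beside 6.25% of genes higher and 2.65% lower. Of these 8, Ctsd was furthest apart, at 504 and 316 CPM. Ctse, under the minimum of 10 CPM, was at 9.70 and 2.37 CPM, a ratio of 4.10 (3.23 to 5.19). Mast cell markers summed to 22343 and 3889 CPM.

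**Figure D3:**
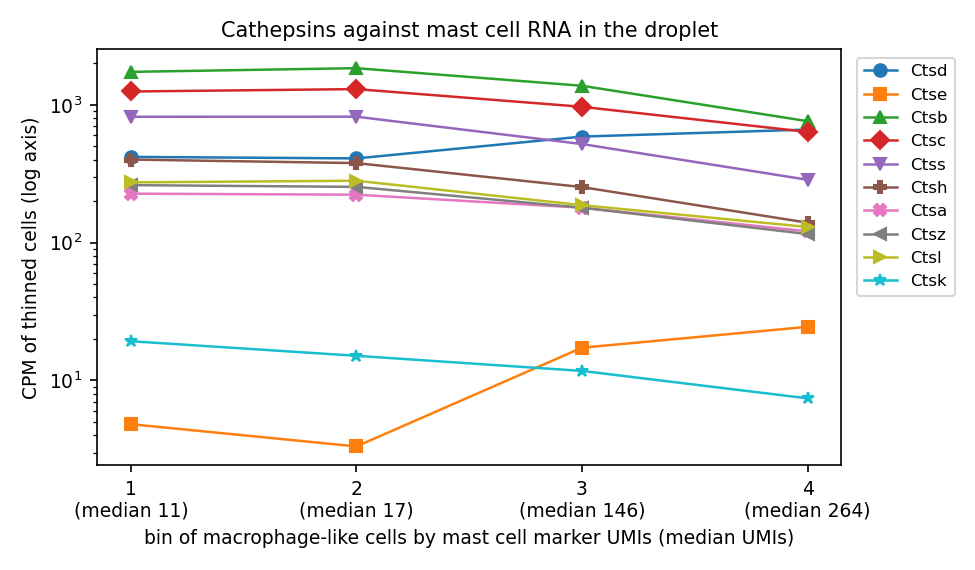
Cathepsins of thinned macrophage-like cells by bin of mast cell marker UMIs. The horizontal axis gives the bin with the median marker UMIs per cell, and the vertical log axis CPM; Ctsd and Ctse are higher in the upper bins, whereas the other 8 members are lower there, Ctss at 819 CPM in the lowest and 286 CPM in the highest bin.

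Across the states of mast cell-like cells, the cathepsins varied less than across classes. The 7 clusters of at least 100 cells with mast cell markers were compared: cluster 0 led by Mrgprb1 and Mrgprb2, receptors of connective tissue mast cells, cluster 2 led by Atp8a2 and Ifitm1, and cluster 3 by haemoglobin genes. Cluster 4 was led by Ctsg and the replication gene Hells, cluster 6 by the mitotic genes Cenpa and Ccnb2, and cluster 7 by histone genes. Cluster 8 had 209 cells with a median of 3523 UMIs and 47.4% of them carried only the Matrigel tag. Of the 7 members with at least 10 CPM in a cluster, 2 differed 2-fold or more between the highest and lowest cluster, beside 44.3% of all genes.

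Ctse spread most. It was at 52.5 CPM in cluster 2, 41.3 CPM in cluster 8, 34.8 CPM in cluster 0, 22.5 CPM in cluster 3, 21.5 CPM in cluster 6, 15.7 CPM in cluster 4 and 11.8 CPM in cluster 7, a 4.47-fold range. The serotonin transporter gene Slc6a4 was at 123 CPM in cluster 2 and 158 CPM in cluster 8, its highest levels, and 33.3 CPM in cluster 7. In those clusters with more Slc6a4 Ctse was also at its highest. Ctsc went from 232 CPM in cluster 0 to 113 CPM in cluster 7, a 2.05-fold range, with 173 CPM in cluster 2 and 126 to 150.4 CPM in the others. Of the listed proteases that cathepsin C activates, Ctsg was at 46.9 CPM in cluster 0 and 635 CPM in cluster 4. Cma1, also on that list, was at 25299 CPM in cluster 0 and 16902 CPM in cluster 4. It was highest in cluster 3 at 26523 CPM and, like Ctsc, lowest in cluster 7, at 15926 CPM.

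Ctsd was at 791 CPM in cluster 0, 728 CPM in cluster 3, 720.2 CPM in cluster 4 and 517 CPM in cluster 8, a 1.53-fold range. Ctsb was between 75.8 and 85.3 CPM in 6 of the clusters and at 149 CPM in the shallow cluster 8. Ctsz, opposite to Ctse, was highest in cluster 4 (79.7 CPM) and cluster 7 (78.2 CPM) and lowest in cluster 2 (50.3 CPM). Ctss had 0 UMIs in cluster 8, which allows up to 2.34 CPM, and 2.75 to 4.82 CPM in the other 6.

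**Figure D4:**
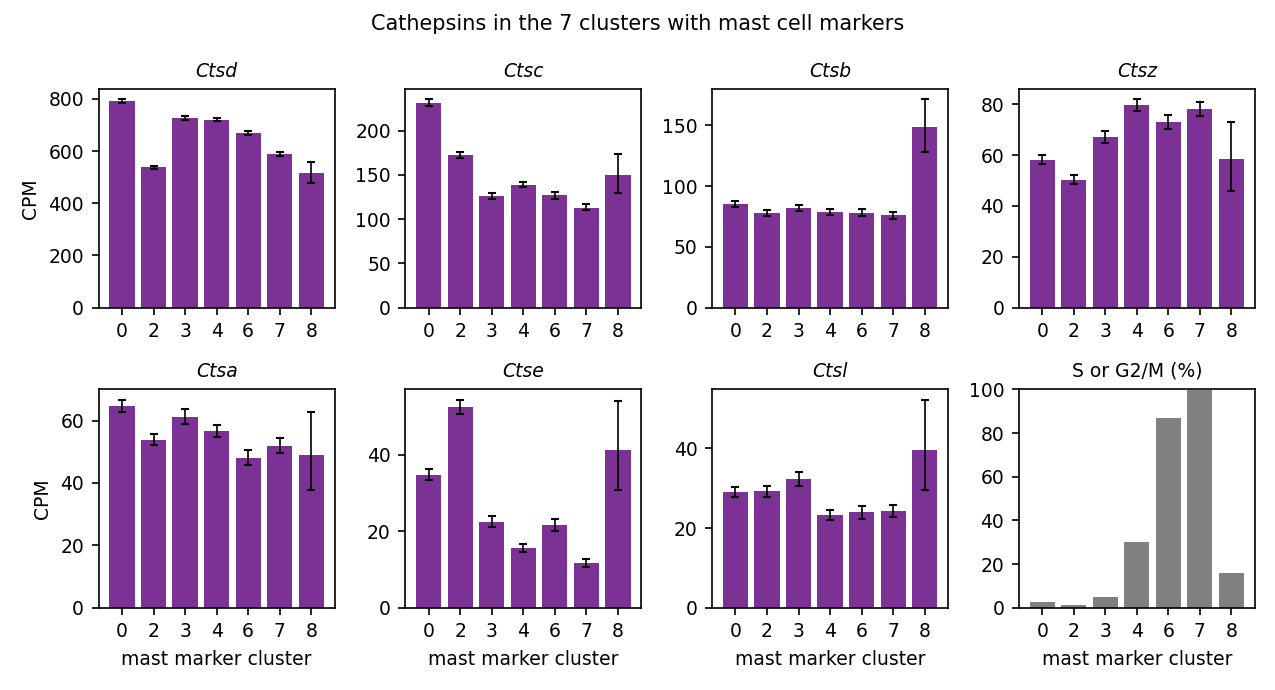
Cathepsins in the 7 clusters with mast cell markers. Bars are CPM of summed UMIs with exact Poisson 95% intervals on axes from 0, and the last panel is the share of thinned cells in S or G2/M phase in percent; Ctse is highest in cluster 2 at 52.5 CPM and lowest in cluster 7 at 11.8 CPM, where 99.9% of cells were in S or G2/M.

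By cell cycle phase, scored on thinned cells, mast cell-like Ctse was at 35.9 CPM in G1, 17.4 CPM in G2/M and 11.9 CPM in S phase. Ctsc was at 188, 119 and 139 CPM and Ctsz at 60.3, 73.5 and 84.7 CPM in the same order. Between G2/M and G1, a pair chosen after the values were seen, Ctse was the only member past 2-fold of the 7 that entered, at 0.484. Its interval, 0.453 to 0.517, included the limit of 0.5, and over all genes 3.37% were lower and 6.27% higher. Median depth was 20038 UMIs in G2/M and 11743.5 UMIs in G1, and the mast cell markers summed to 48934 and 64212 CPM. The part of depth and of mast cell markers in the Ctse ratio was not tested. In fibroblast-like cells Ctsk was the only one of 8 past 2-fold, at 129 CPM in G2/M and 271 CPM in G1 (0.476), beside 3.32% lower and 6.04% higher. Ctsl, at 686 and 1315 CPM, was at 0.521. All 8 had a ratio below 1, with a median of 0.619, and over all genes the median was 1.05. Median depth was 40727 UMIs in G2/M and 30911 UMIs in G1, and the 7 fibroblast markers summed to 6611 CPM in G2/M and 12793 CPM in G1. The part of depth and of these markers in the result was not tested.

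Macrophage-like cells were clustered again, without any listed gene. Of the 6 sub-clusters of at least 100 cells, numbers 1 to 4 held the least mast cell RNA, with markers summing to 2997 to 4901 CPM beside 39902 CPM in sub-cluster 0 (806 cells, 68.6% with more than 1 tag). In sub-cluster 0 Ctsb was at 839 CPM and Ctss at 314 CPM, and it was left out of the comparisons of sub-clusters below. Its cells stayed in all values of the macrophage-like class, with 12483742 of the 29032919 gene UMIs of that class. Thinning left out 25 of its 806 cells, beside 315 of the 437 cells of sub-cluster 2. Sub-cluster 1 (608 cells) was led by the haemoglobin genes Hbb-bs, Hba-a2, Hba-a1 and Hbb-bt, and had the resident macrophage genes Lyve1 (928 CPM), Folr2 (975 CPM) and Timd4 (224 CPM). Sub-cluster 3 (372 cells) had Lyve1 at 91.0 CPM, and Cd74 at 12922 CPM and the monocyte receptor gene Ccr2 at 224 CPM.

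Between these, chosen for comparison after the values were seen, Ctss was at 1053 CPM in sub-cluster 3 and 688 CPM in sub-cluster 1, a ratio of 1.53 (1.46 to 1.60), beside 2.52 for Cd74. Ctsz (303 and 223 CPM) and Ctsh (401 and 359 CPM) were also above 1. Ctsl was lower, at 170 and 347 CPM (0.489, interval 0.443 to 0.539). Ctsk at 0.542, Ctsd at 0.551 and Ctsb at 0.628 were on the same side as Ctsl without reaching 2-fold, while Ctsc was at 0.855 and Ctsa at 0.889. Ctsl was thus 1 of 9 members called, beside 4.86% of genes lower and 6.16% higher, and its interval included the limit of 0.5. Macrophage markers summed to 11985 CPM in sub-cluster 3 and 17167 CPM in sub-cluster 1.

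Sub-cluster 5 (159 cells) was led by Camp and Ngp, neutrophil granule genes, with Dcstamp and Chil3. Its summed Ctsd was 880.3 CPM, against 476 CPM in sub-cluster 1 (1.85), and mast cell markers summed to 11280 CPM there. The cells of sub-cluster 5 were uneven: the median was 2 thinned UMIs in both, the highest cell of sub-cluster 5 had 48, and 77.0% of cells had a UMI beside 85.7% in sub-cluster 1. The mean of per-cell CPM was 592 beside 473, and 642 in sub-cluster 0. Ctsc was at 585 CPM, a ratio of 0.463, the only one of 9 members past 2-fold, beside 9.27% of genes lower and 12.1% higher. Macrophage markers summed to 17167 CPM in sub-cluster 1 and 5728 CPM in sub-cluster 5. Ctsk was at 11.7 CPM, although this sub-cluster had the most osteoclast marker UMIs, 121 CPM in sum with Dcstamp at 107 CPM. In sub-cluster 4 (186 cells) Ctsc had its highest level, 2074 CPM. A group of 47 cells led by Cxcl13 had Ctsk at 30.9 CPM.

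**Figure D5:**
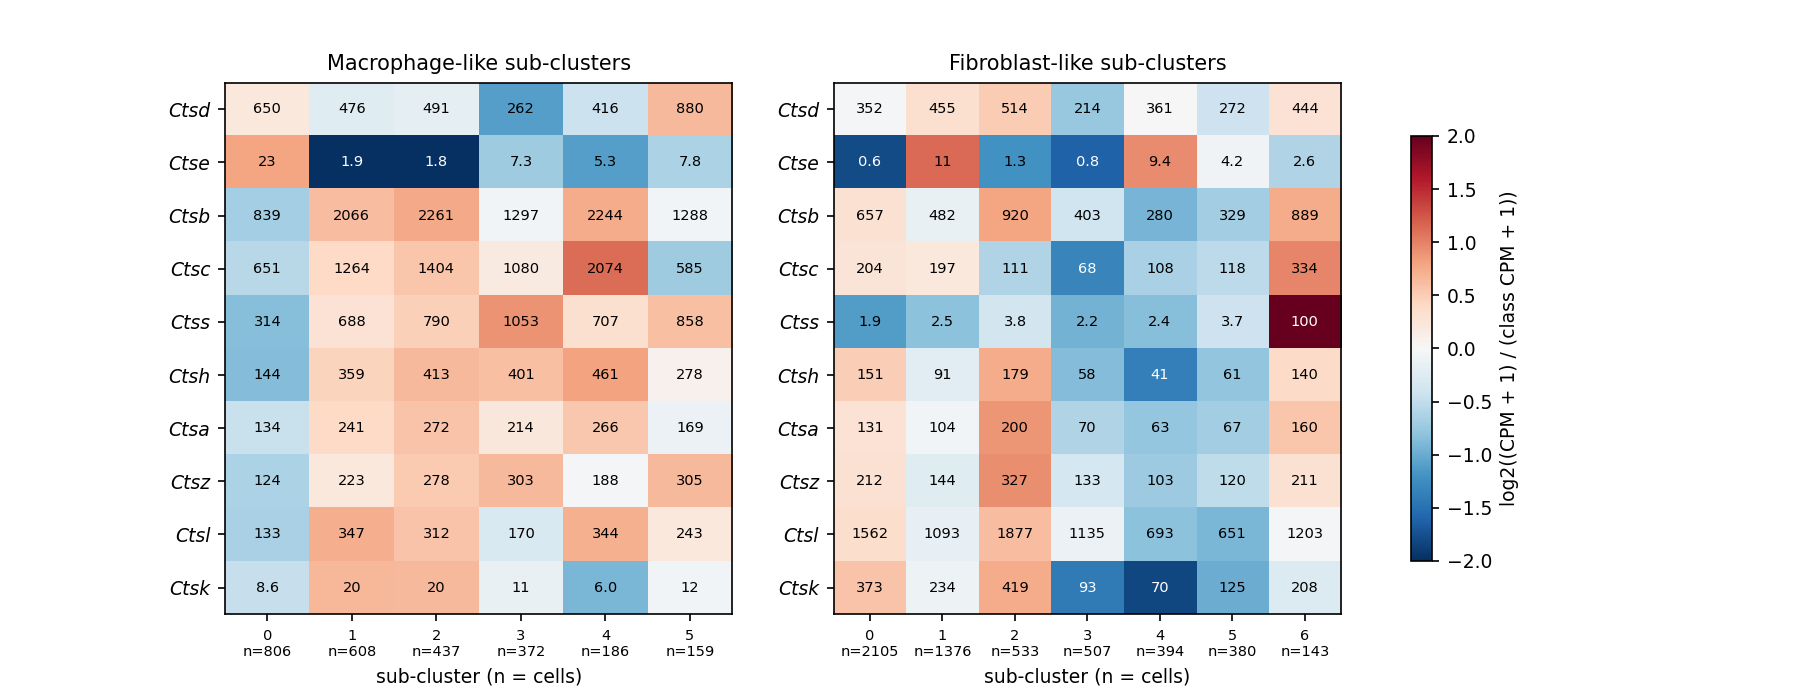
Cathepsins in sub-clusters of at least 100 cells of the macrophage-like and fibroblast-like classes. Numbers are CPM of summed UMIs and colour is log2 of (CPM + 1) over (class CPM + 1); Ctss is highest in macrophage-like sub-cluster 3 at 1053 CPM, and Ctsk is 373 CPM in fibroblast-like sub-cluster 0 and 93.4 CPM in sub-cluster 3.

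In fibroblast-like cells, sub-cluster 0 (2105 cells) expressed the complement genes C7 and C3, and sub-cluster 3 (507 cells) had Dlk1 (188 CPM) and Crabp1 (61.3 CPM). Ctsk was at 93.4 CPM in sub-cluster 3 and 373 CPM in sub-cluster 0, a ratio between 0.239 and 0.262. Ctsc (67.6 and 204 CPM, 0.331) and Ctsh (58.0 and 151 CPM, 0.384) were also past 2-fold. These 3 of 8 members stood beside 4.64% of genes lower and 4.09% higher, in a pair chosen after the values were seen. The other 5 were at 0.536 for Ctsa, 0.606 for Ctsd, 0.613 for Ctsb, 0.628 for Ctsz and 0.727 for Ctsl. The fibroblast markers were lower in sub-cluster 3 as well, summing to 5800 CPM against 17186 CPM. Col1a1, itself among these markers, encodes an alpha chain of type I collagen, which cathepsin K cleaves, and was at 1238 and 4097 CPM.

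Sub-cluster 2 (533 cells, led by H19, Saa3 and C3) had the highest Ctsl of all sub-clusters, 1877 CPM, and Ctsk at 419 CPM. Against sub-cluster 0 none of 8 members was past 2-fold, beside 0.794% of genes higher and 20.1% lower. Ctsz was at 1.54, Ctsa at 1.52, Ctsd at 1.46, and Ctsc at 0.545. Its median depth was 10233 UMIs beside 30051 UMIs. Sub-cluster 6 (143 cells), led by Cfd and Adipoq, was the one fibroblast-like group with Ctss, 99.9 CPM. Macrophage markers summed to 1528 CPM and Cd74 to 992 CPM in it, and 61.5% of its cells carried more than 1 tag.

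Within classes the cathepsins of single cells moved together only weakly. Over 2059 thinned macrophage-like cells of the library Spearman's rho was 0.374 for Ctsb with Ctsc, 0.309 for Ctsh with Ctss and -0.209 for Ctsd with Ctss. With the summed mast cell markers it was -0.476 for Ctss, -0.437 for Ctsb, -0.394 for Ctsh and -0.335 for Ctsc, and 0.285 for Ctsd. The part of mast cell RNA in the pairs was not tested. Over 16281 mast cell-like cells rho lay between -0.0696 and 0.0589 for all pairs of members. Over 5220 fibroblast-like cells it was 0.409 for Ctsb with Ctsl and 0.295 for Ctsk with Ctsl. Cells share the library and thinned counts are small, so these values are descriptions. Across 9 clusters (7 with mast cell markers, 1 macrophage-like and 1 fibroblast-like), the genes most like Ctse in log2(CPM + 1) among 8246 genes were Gm973, Dnah14 and Tbc1d9b (Pearson's r 0.983 to 0.989). For Ctsk they were Cav1, Apbb2 and Hp (0.996 to 0.997), for Ctsl Pmepa1, Id3 and Ccn1 (0.998 to 0.999), for Ctss Trim47, Gm26740 and Cd209d (0.985 to 0.989), and for Ctsd Mfsd5, Rnase6 and P2ry1 (0.929 to 0.935). For Ctsb they were Abtb2, Ifi203 and Ahcyl2, for Ctsc Zfand5, Cyth1 and Adgrg6, for Ctsh Itsn1, Cpne8 and Mndal, for Ctsa Socs3, Ntpcr and Icam1, and for Ctsz Flna, Mrfap1 and Ifi30. Of the 9 points 7 are of a single class, and all share the library.

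Genes that work with cathepsins were read from fixed lists. Of 11 genes for activation, partners and sorting, 9 reached 10 CPM and 2 were higher in macrophage-like than mast cell-like cells, beside 17.6% of all genes: Lgmn, the asparaginyl endopeptidase that processes cathepsins, at 496 and 4.55 CPM (109-fold), and Psap, the saposin precursor, at 696 and 74.4 CPM (9.35-fold). In fibroblast-like cells Igf2r, a mannose 6-phosphate receptor, was at 104 CPM beside 3.19 CPM in the mast cell-like class and 6.51 CPM in the macrophage-like class, whereas M6pr, the other receptor, was at 91.1 CPM in the macrophage-like class and 88.0 CPM in the mast cell-like class.

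Of the inhibitors, 6 of 13 entered between macrophage-like and mast cell-like cells, 1 higher and 3 lower, beside 17.6% and 11.0% of all genes. Cst3, cystatin C, was at 2598 CPM in the macrophage-like class, 1282 CPM in the fibroblast-like class and 622 CPM in the mast cell-like class, highest where the summed cathepsins were highest. Cst7, cystatin F, which acts on cathepsin C, was at 210.1 CPM in the mast cell-like class and 67.0 CPM in the macrophage-like class, a ratio of 0.319 within the 0.318 to 0.393 of mast cell markers. Serpinb1a was at 0.325. Cst6 was at 64.8 CPM in the fibroblast-like class and 4.43 CPM in the mast cell-like class.

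Other lysosomal genes differed between macrophage-like and mast cell-like cells in a smaller share. Beside 17.6% higher and 11.0% lower over all genes, 11 of the 32 hydrolases that entered were higher and none lower, with Scpep1 at 35.7, Arsb at 20.1 and Gla at 5.75, and a median of 1.43. Of 20 membrane and proton pump genes, 7 were higher and 1 lower, with Slc11a1 at 153, Cd68 at 51.6 and Lamp1 at 4.92, and Cd63 lower at 0.468. Of the 4 MiT transcription factors, which switch on lysosomal genes, Tfec was at 243, Tfeb at 12.8 and Tfe3 at 2.52, while Mitf was at 1.13. All 8 class II genes were higher, from 8.29 to 287. The 7 granule proteases that entered were all lower, at 0.259 to 0.393, which is the mast cell carry-over range or below. Cma1, Mcpt4 and Tpsb2 are also mast cell markers, which named the class and set that range. Their being lower and within it was therefore fixed in advance.

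Between fibroblast-like and mast cell-like cells 9 of 32 hydrolases were higher and 5 lower, near the 22.4% and 16.4% of all genes, led by Scpep1 at 41.8 and Arsb at 16.2. All 4 of the cathepsin K substrate genes that entered were higher, Sparc at 75.5, Col1a2 at 69.4, Col1a1 at 62.9 and Eln at 39.8, beside 49.9 for Ctsk. Col1a1 and Col1a2 are also among the fibroblast markers that named the class, so their direction was fixed in advance. Between macrophage-like and fibroblast-like cells 11 of 33 hydrolases were higher and 4 lower, beside 18.8% and 19.1% of all genes, with Prcp at 7.25 and Gaa at 0.274. Of the other 13 cathepsin genes, 3 reached 10 CPM: Ctsg, at 363 CPM in the mast cell-like class, Ctso, at 15.9 to 33.7 CPM, and Ctsf, at 4.07 to 17.5 CPM. The rest of that list, Ctsw and the placental cathepsins among them, stayed below 10 CPM in every class.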

How the data were processed

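The authors deposited raw UMI counts of each gene in each barcode. Per the file headers they came from Cell Ranger 7.0.0. The submitters' processing notes name the mm10 build. Counting of introns and strand is not given in the sources used here. The matrix held 593248944 gene UMIs, and the 3 tag features (21.9% of all UMIs) were kept out of gene totals. The tag library deposited on its own was not used here.

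A barcode was kept if it had 500 or more genes, 1000 or more UMIs and no more than 10% mitochondrial UMIs. Scrublet in scanpy 1.11.5 called 3245 doublets (9.32%) at a threshold of 0.564, and 37.1% of simulated doublets lay above it; 3209 were removed. The share expected at the assumed rate for this loading was 27.9%, so doublets may remain among the cells kept, and another random seed called 4726. Cells were clustered on log counts per 10000 (2000 variable genes, 30 principal components, 15 neighbours, leidenalg 0.10.2 at resolution 0.5) without the 215 listed genes, mitochondrial and ribosomal protein genes. A marker counted for a cluster from 50 CPM if that was 4 times the lowest level in any cluster of 100 cells or more. A name needed at least 3 markers and over 50% of a list. It was withheld where another list had more genes among the 10 leading genes, or where cells were shallow. Sub-clusters were made in the same way.

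Intervals are exact Poisson for CPM, while ratios have binomial and shares Clopper-Pearson intervals. With 1 library no p-value was computed. A ratio of at least 2, or at most 0.5, was called where either group had at least 10 CPM. The rule was tested on Poisson counts drawn from the summed mast cell-like profile with known changes. That simulation held no carried-over RNA, doublets or spread between cells, so it covered counting error only. A tag was called at 2 times its background, and the Cafum tag at 1.4 times.

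All 10 members are named, and of each gene list up to 3 genes with the highest and lowest ratio, with genes of a fitting role. The members and lists were chosen with earlier results of these data known. The pairs of sub-clusters, phases and tags, and the use of tags, were chosen after the values were seen. Doublets, mitochondrial share, resolution, thresholds, weighting, mast cell RNA and thinning were varied.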

Additional observations from a re-analysis of the deposited data

How the results depend on the processing

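No paired analysis was possible because the counts come from 1 library. At a ratio of 4 the count of members higher in macrophage-like than mast cell-like cells was 5 and of lower ones 0, the count higher in macrophage-like than fibroblast-like cells was 2, and 1 member differed between mast cell-like clusters. At a ratio of 1.5, 2 members were lower in fibroblast-like than mast cell-like cells and 6 differed between clusters. With called doublets kept, 0 were lower in macrophage-like than mast cell-like cells, 3 were higher than in fibroblast-like cells and 1 differed between clusters. With mast cell RNA subtracted, without rescaling the rest, 2 were lower in macrophage-like and 2 in fibroblast-like than in mast cell-like cells. Leaving out the rescaling lowers these ratios, and Ctsd counted in macrophage-like cells at 0.480. Whether these calls hold after rescaling was not tested. At a minimum of 50 CPM both counts of lower members were 0. With 1 tag per class, an alternative chosen after seeing the data, 2 were lower in fibroblast-like than mast cell-like cells. With the mean of per-cell CPM, 5 differed between mast cell-like clusters. Changes with the ratio or the minimum follow from the limit itself, and the cause of the others was not tested. No called ratio changed its direction in any setting. Among ratios within 2-fold, Ctsz between macrophage-like and fibroblast-like cells ranged from 0.970 to 1.29 and Ctsc between fibroblast-like and mast cell-like cells from 0.868 to 1.25. The ratio of Ctss between macrophage-like and fibroblast-like cells ranged most, from 39.9 to 358. Depth limits members near 5 CPM in a class.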
